A study of Mus musculus with 2 samples.

Results

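The sphingosine 1-phosphate (S1P) system was described through 10 genes, the 5 receptors *S1pr1* to *S1pr5* and 5 genes that make, destroy or export the lipid (*Sphk1*, *Sphk2*, *Sgpl1*, *Sgpp1* and *Spns2*). They were found by symbol, older or current, in the annotation of the array, taking every probe set that is annotated to 1 of these genes alone. This gave 18 of 45101 probe sets, and 10 of the 18194 genes with a probe set of their own. The 2 samples were CD31+ CD133+ (Prom1+) and CD31+ CD133- (Prom1-) endothelial cells, both sorted by FACS with antibodies from the normal brain vasculature of C57BL/6 mice. Neither sample carries a treatment or a modified allele in the labels. Each was hybridized to 1 Affymetrix mouse genome array after RNA amplification. How many mice were pooled for an array, and their age, is not given in the sources used here. CD31 is an adhesion molecule of endothelium, and CD133, or prominin 1, is a membrane glycoprotein of cell protrusions.

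S1P is a lipid signal that sphingosine kinases make from sphingosine, itself a product of ceramide. It leaves the cell through transporters and acts on G protein-coupled receptors at the surface of the same or of neighboring cells, until phosphatases turn it back into sphingosine or the S1P lyase breaks it down. In blood vessels it is known for tightening the junctions between endothelial cells through S1PR1, for acting on the tone of smooth muscle through S1PR2 and S1PR3, and for guiding lymphocytes between tissue and blood.

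Signals are given as multiples of the median signal of the same array, and a signal under a floor of 1.67 times the median was not counted as measured. Each population has a single array, so folds are given without a replicate error or a p-value. As a measure of disagreement between probe sets on this pair of arrays, log2 ratios of different probe sets of the same gene had an SD of 0.54 over 3930 genes. It leaves out error of sorting, amplification or hybridization that the probe sets of a gene share. The arrays differed as a whole. The median log2 ratio of Prom1+ over Prom1- was 0.66 over the 10793 genes measured on at least 1 array, so that the median gene was 1.58-fold higher in Prom1+ cells, and every fold below is to be read beside this shift. The transcript of the sort marker, *Prom1*, was not higher in the array labelled Prom1+. It had 159 times the median there against 196 times in the Prom1- array, a log2 ratio of -0.30. This ratio was -0.84 with equal trimmed means, -0.45 with equal pan-endothelial genes and 0.76 with equal hybridization controls. It was close to 0 with loess, at -0.033, and with quantile normalization, at -0.017. The 25 pan-endothelial markers were all measured, with summed signals of 3048 times the median in Prom1+ cells and 3047 times in Prom1- cells. Of these 16 had a log2 ratio above 0, with a list median of 0.15 that was -0.39 with equal trimmed means and 1.21 with equal hybridization controls. *Nos3*, at 2.15-fold, and *Erg*, at 2.01-fold, were at least 2-fold higher, while among the brightest *Cldn5* was 1.49-fold, *Flt1* 1.33-fold and *Tek* 1.13-fold lower, and *Egfl7* had 198 times the median on both arrays.

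Of the 10 genes, 8 were measured and each of these on both arrays. The receptor *S1pr3* was more than 4-fold lower on the Prom1+ than on the Prom1- array by both of its measured probe sets. It was the only member with a log2 ratio under 0. The kinase *Sphk2*, the lyase *Sgpl1*, the transporter *Spns2* and the receptor *S1pr4* were 2.04- to 2.42-fold higher in Prom1+ cells by their brightest probe sets. *S1pr1*, *S1pr2* and the phosphatase *Sgpp1* differed by less than 2-fold. *S1pr5* and *Sphk1* stayed under the floor on both arrays. Thus 4 members (50%) were at least 2-fold higher, where the same rule called 28.2% of all genes measured, and 1 member (12.5%) was at least 2-fold lower, where it called 4.77%. The median log2 ratio of the 8 members was 0.91, against 0.66 over all genes.

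**Figure D1:**
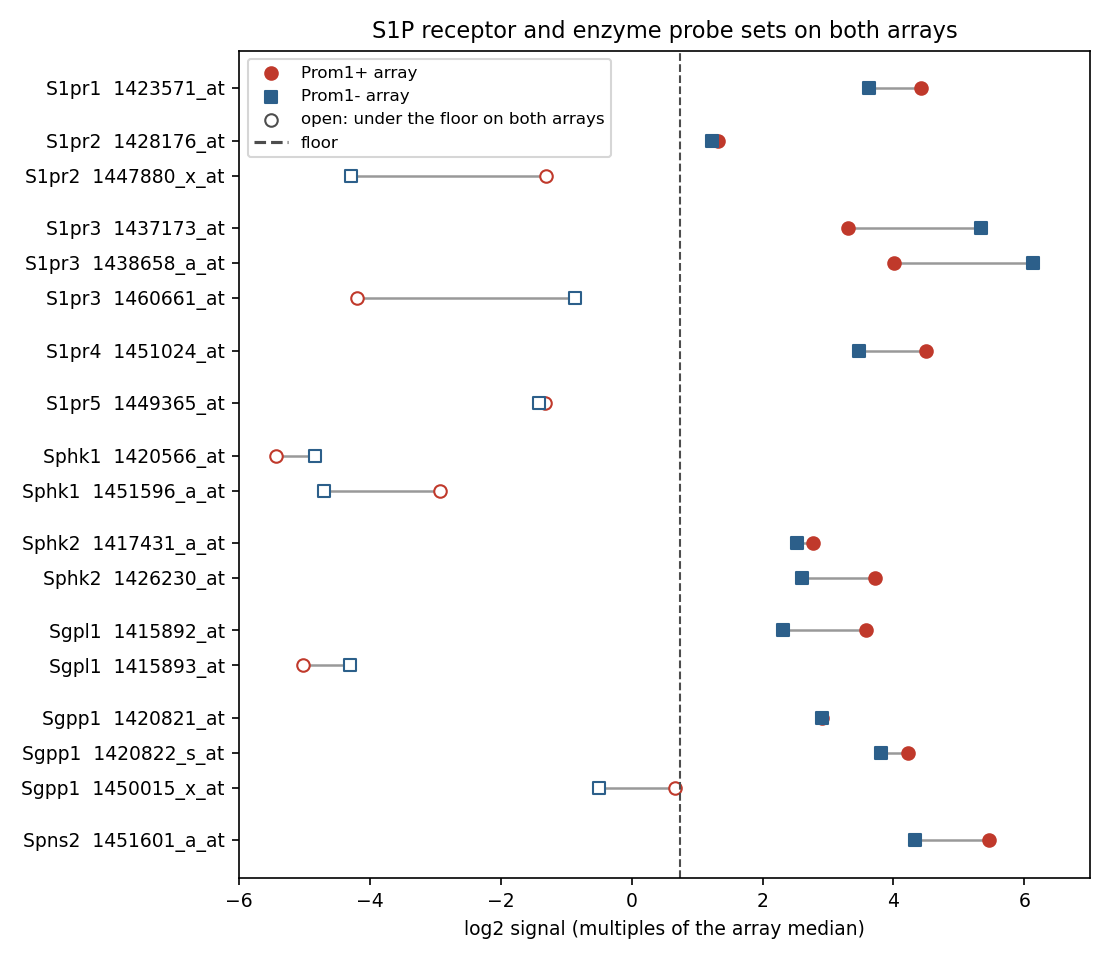
Log2 signal, in multiples of the array median, of each of the 18 probe sets of the S1P genes in the Prom1+ array (red circles) and the Prom1- array (blue squares), with a dashed line at the floor and open symbols for the 7 probe sets under it on both arrays. The circles lie left of the squares, by about 2 log2 units, in both measured probe sets of *S1pr3* (log2 ratios of -2.03 and -2.13). They lie right of the squares in the other 9 measured probe sets, barely so in 1 of *Sgpp1*. Of these, 4 were at least 2-fold higher.

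Among the receptors, *S1pr3* is the one best known from smooth muscle and heart, and couples to several classes of G protein. Its probe set 1438658_a_at had 16.1 times the median in Prom1+ cells and 70.2 times in Prom1- cells, a log2 ratio of -2.13 or 4.36-fold lower. Probe set 1437173_at had 9.89 times in Prom1+ cells and 40.4 times in Prom1- cells, a log2 ratio of -2.03 or 4.09-fold lower. The 2 probe sets thus differed in ratio by 0.095 log2 units, well within the SD of 0.54 given above. The third, 1460661_at, reached the floor on neither array, with 0.0545 times the median in Prom1+ cells and 0.551 times in Prom1- cells, and no fold is given for it. The study listed 1437173_at among its lower genes on these same arrays, so its direction there is not independent evidence.

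Because the shift was not the same at every signal, each measured probe set was set beside the 1000 probe sets nearest to it in mean log2 signal. Around 1438658_a_at these had a median fold of 1.65 in favor of Prom1+ cells, and 1.6% of them were at least 2-fold lower. Around 1437173_at the median fold was 1.79, and 1.8% were at least 2-fold lower. With these medians subtracted, the log2 ratios of *S1pr3* were -2.85 by 1438658_a_at and -2.87 by 1437173_at.

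*S1pr1*, the main receptor of endothelial cells and a guard of the vessel barrier, had 21.3 times the median in Prom1+ cells and 12.4 times in Prom1- cells by its single probe set. This was 1.72-fold higher, beside a median fold of 1.80 in its neighborhood of signal. With that median subtracted the log2 ratio of *S1pr1* was -0.06, so that it moved with the shift between the arrays. *S1pr2*, a receptor that can oppose S1PR1 at junctions, had 2.503 times the median in Prom1+ cells and 2.328 times in Prom1- cells, 1.08-fold higher, with both signals close to the floor. Its other probe set, 1447880_x_at, was under the floor, at 0.403 times in Prom1+ cells and 0.0509 times in Prom1- cells.

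*S1pr4*, a receptor known mainly from lymphocytes and other blood cells, had 22.6 times the median in Prom1+ cells and 11.1 times in Prom1- cells by its single probe set. This log2 ratio of 1.03, 2.04-fold higher, was just past the rule of 2-fold, and its neighborhood of signal had a median fold of 1.79, with 38.0% of its probe sets at least 2-fold higher. It is the second S1P receptor that the study had picked on these arrays. All 10 markers with a probe set in the list of lymphocytes and other leukocytes were under the floor on both arrays. Among them were *Cd3e*, *Cd8a*, *Cd79a* and *Ms4a1*. The summed signals of the 10 were 2.75 times the median in Prom1+ cells and 2.24 times in Prom1- cells. Markers of microglia and macrophages, a separate list given below, were mostly measured. The part of blood cells in the *S1pr4* signal was not tested. *S1pr5*, a receptor of oligodendrocytes and natural killer cells, had 0.400 times the median in Prom1+ cells and 0.374 times in Prom1- cells, under the floor on both.

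The start regions of *S1pr3* and *S1pr4* are shown because their ratios as deposited lay on opposite sides of 0. That of *S1pr4* lay 0.19 log2 units above the median of probe sets of like signal, within the SD of 0.54. They are windows of 300 bases around the RefSeq start (build GRCm38.p6), at chr13:51408368-51408667 on the plus strand for *S1pr3*, and chr10:81500088-81500387 on the minus strand for *S1pr4*. Capitals mark GGGCGG, the GC box, and CACCC, the core bound by Krüppel-like factors, each searched on both strands, with no overlap between matches of the 2 motifs.
S1pr3: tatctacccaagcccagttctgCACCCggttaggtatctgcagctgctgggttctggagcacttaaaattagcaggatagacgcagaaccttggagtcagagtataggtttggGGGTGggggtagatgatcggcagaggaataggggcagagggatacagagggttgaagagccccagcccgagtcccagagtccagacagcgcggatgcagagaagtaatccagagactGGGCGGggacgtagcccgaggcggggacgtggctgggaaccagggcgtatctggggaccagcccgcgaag
S1pr4: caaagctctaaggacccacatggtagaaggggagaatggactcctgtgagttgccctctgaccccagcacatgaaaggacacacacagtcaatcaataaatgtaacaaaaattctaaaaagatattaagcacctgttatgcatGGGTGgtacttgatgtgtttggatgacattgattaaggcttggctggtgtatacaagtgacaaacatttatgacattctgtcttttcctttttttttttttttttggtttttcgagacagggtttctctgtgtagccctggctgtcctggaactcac
The *S1pr3* window held 1 GC box and 2 CACCC cores, and the *S1pr4* window held no GC box and 1 CACCC core. Over all 32851 windows of this length, 35.7% held a GC box and 57.5% a CACCC core. The CArG box, the element bound by serum response factor in smooth muscle genes, had no match in either window and a match in 1.63% of all windows. The share of G and C was 59.0% for *S1pr3* and 41.0% for *S1pr4*, around a median of 52.7% over all windows. Windows were given for 9 of the 10 members, with none for *S1pr1*.

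Of the enzymes, sphingosine kinases add the phosphate that makes S1P. *Sphk2*, the kinase of nucleus and mitochondria, was measured by both of its probe sets, which differed in size. Probe set 1426230_at had 13.1 times the median in Prom1+ cells and 6.04 times in Prom1- cells, 2.17-fold higher, and 1417431_a_at had 6.79 times in Prom1+ cells and 5.75 times in Prom1- cells, 1.18-fold higher. The median fold of probe sets of like signal was 1.86 around 1426230_at, with 42.5% at least 2-fold higher, and 1.77 around 1417431_a_at. With these medians subtracted, the log2 ratios were 0.23 by 1426230_at and -0.59 by 1417431_a_at, on opposite sides of the shift. The gap between the 2 probe sets as deposited was 0.88 log2 units. The SD of 0.54 is that of single ratios around the mean of their gene, and a gap between 2 ratios spreads more widely. Whether *Sphk2* passed 2-fold thus depended on the probe set. *Sphk1*, the inducible kinase of the cytoplasm, was under the floor. Its probe set 1451596_a_at had 0.132 times the median in Prom1+ cells and 0.0385 times in Prom1- cells, and 1420566_at had 0.0230 times in Prom1+ cells and 0.0348 times in Prom1- cells. As a measure of background, the 27 probe sets for Bacillus transcripts reached 0.234 times the median on the Prom1+ array and 0.276 times on the Prom1- one, above each of these signals of *Sphk1*.

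*Sgpl1*, the lyase that breaks S1P down for good, had 11.98 times the median in Prom1+ cells and 4.95 times in Prom1- cells by probe set 1415892_at. With a log2 ratio of 1.27, 2.42-fold, it had the largest ratio of the members, and lay 0.47 log2 units above probe sets of like signal, within the SD of 0.54. Its other probe set, 1415893_at, was under the floor, at 0.0307 times in Prom1+ cells and 0.0503 times in Prom1- cells. *Sgpp1*, a phosphatase of the endoplasmic reticulum that returns S1P to sphingosine, had 18.6 times the median in Prom1+ cells and 14.0 times in Prom1- cells by probe set 1420822_s_at, 1.33-fold higher. Probe set 1420821_at had 7.50 times in Prom1+ cells and 7.49 times in Prom1- cells, a log2 ratio of 0.0021. Both lay below the median of probe sets of like signal, with log2 ratios of -0.43 and -0.82 once it was subtracted. The third, 1450015_x_at, was just under the floor in Prom1+ cells, at 1.58 times the median, and at 0.708 times in Prom1- cells.

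*Spns2*, the transporter by which endothelial cells release S1P, had 44.2 times the median in Prom1+ cells and 20.1 times in Prom1- cells by its single probe set. It was 2.19-fold higher, where the median fold of probe sets of like signal was 1.69 and 24.1% of these were at least 2-fold higher. The transporter thus lay 0.38 log2 units above the shift, within the same SD.

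**Figure D2:**
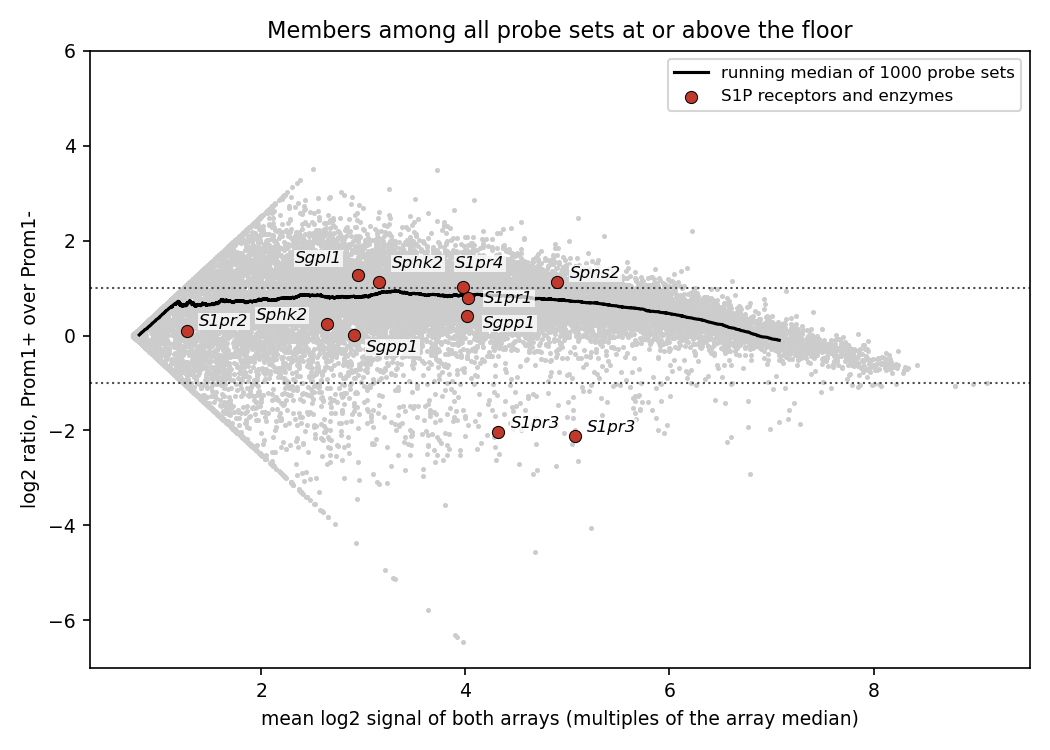
Log2 ratio of Prom1+ over Prom1- cells against the mean log2 signal of both arrays, in multiples of the array median, for all probe sets at or above the floor on at least 1 array (grey, signals under the floor set to it) and for the 11 measured probe sets of the S1P genes (red). A running median over 1000 probe sets is drawn in black, and dotted lines mark 2-fold. Relative to the median of probe sets of like signal, the members other than *S1pr3* lie between -0.82 and 0.47, and both probe sets of *S1pr3* lie at -2.85 and -2.87.

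Set in order of their log2 ratio, the members ran from *S1pr3* at -2.13 through *S1pr2* at 0.10, *Sgpp1* at 0.41, *S1pr1* at 0.78, *S1pr4* at 1.03, *Sphk2* at 1.12 and *Spns2* at 1.13 to *Sgpl1* at 1.27. Only the gap between *S1pr3* and *S1pr2*, of 2.23 log2 units, exceeded the SD of 0.54. No other neighbors in this order differed by more than 0.37 log2 units, and the order of such neighbors is not distinguished by these arrays. Members further apart, such as *S1pr2* and *Sgpl1*, differed by more than this SD, which is that of single ratios and not of gaps. A constant that rescales an array moves all ratios alike and leaves these gaps. Relative to *S1pr1*, *S1pr3* was 7.51-fold lower in Prom1+ than in Prom1- cells, and relative to *Spns2* it was 9.57-fold lower. Of the 9 measured probe sets of the other members, 7 lay within the SD of the median of probe sets of like signal, and 4 lay above that median.

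The direction of *S1pr3* was the same under each of 6 scalings, the deposited one and 5 others. The log2 ratio of 1438658_a_at ran from -2.84 after loess correction to -1.07 with the hybridization controls set equal, and that of 1437173_at from -2.87 to -0.98. The higher members did not keep their call. With the arrays brought to the same trimmed mean, by quantile normalization or by loess, no member was at least 2-fold higher, and *S1pr3* was at least 2-fold lower in each. Under the same scalings 7.99%, 6.23% and 5.48% of all genes measured were at least 2-fold higher. The shares at least 2-fold lower were 8.04%, 7.84% and 7.91%. With the pan-endothelial genes set equal, *Sgpl1* alone was at least 2-fold higher, beside 20.5% of all genes. With the hybridization controls set equal all 7 members other than *S1pr3* were, beside 80.4% of all genes. *S1pr1*, *S1pr2*, both measured probe sets of *Sgpp1* and the dimmer one of *Sphk2* changed direction between the scalings, while *S1pr4*, *Sgpl1*, *Spns2* and the brighter probe set of *Sphk2* had log2 ratios above 0 in all 6.

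**Figure D3:**
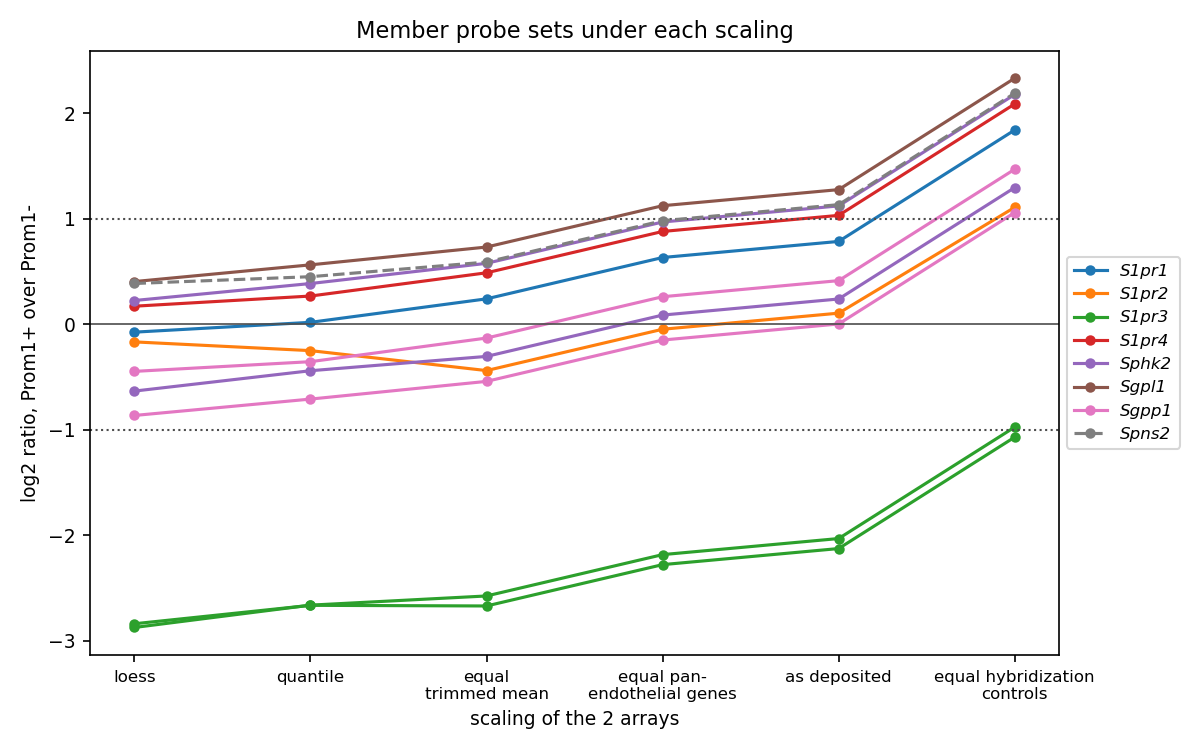
Log2 ratio of Prom1+ over Prom1- cells (vertical axis) for the 11 measured probe sets of the S1P genes, 1 line each, colored by gene, under the deposited scaling and 5 others (horizontal axis). Dotted lines mark 2-fold. Both lines of *S1pr3* stay below 0, between -2.87 and -0.98, and below all others, each of which crosses the line of 2-fold higher as the scaling changes.

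The genes around this system were described by 3 further lists of 57 genes, of which 46 were measured. Of these 9 (19.6%) were at least 2-fold higher in Prom1+ cells and 1 (2.17%) was at least 2-fold lower, beside 28.2% and 4.77% of all genes. With loess, quantile normalization or equal trimmed means, none was at least 2-fold higher, beside 5.48%, 6.23% and 7.99% of all genes. In the order in which the lists follow, 2 of 9, 4 of 21 and 2 of 16 measured genes were so under equal pan-endothelial genes, beside 20.5%. Under equal hybridization controls 7 of 10, 18 of 21 and 14 of 16 were, beside 80.4%. Among phosphatases, carriers and exporters, 2 of 9 measured genes passed 2-fold upward and 1 downward, with a median log2 ratio of 0.61. The second S1P phosphatase, *Sgpp2*, had 58.0 times the median in Prom1+ cells and 20.7 times in Prom1- cells, 2.80-fold higher. *Aldh3a2*, the dehydrogenase that clears the aldehyde released by the lyase, had 45.3 times in Prom1+ cells and 20.2 times in Prom1- cells, 2.25-fold higher. The lower gene was *Plpp3*, a surface phosphatase of S1P and lysophosphatidic acid, with 14.8 times in Prom1+ cells and 33.9 times in Prom1- cells, 2.28-fold lower, a call lost under equal hybridization controls, where no gene of this list was at least 2-fold lower. Of the bright genes of this list beside *Sgpp2*, 3 differed by less than 2-fold, with *Mfsd2a*, a lipid carrier of the blood-brain barrier, at 152 times in Prom1+ cells and 147 times in Prom1- cells, the exporter *Abcg2* at 148 times in Prom1+ cells and 173 times in Prom1- cells, and the phosphatase *Plpp1* at 66.5 times in Prom1+ cells and 60.7 times in Prom1- cells. *Apom*, the S1P carrier of plasma lipoproteins, and *Mfsd2b*, the S1P exporter of red cells and platelets, were under the floor on both arrays.

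Of the genes that supply ceramide and sphingosine, 5 of 21 measured passed 2-fold upward and none downward, with a median log2 ratio of 0.61. The largest ratios were those of sphingomyelinases, which release ceramide from sphingomyelin. *Smpd2* had 30.7 times the median in Prom1+ cells and 11.4 times in Prom1- cells, 2.69-fold higher, and *Smpd1* had 30.2 times in Prom1+ cells and 11.97 times in Prom1- cells, 2.53-fold higher. The sphingomyelin synthase *Sgms1*, which runs the other way, had 164 times in Prom1+ cells and 182 times in Prom1- cells. The ceramidase *Acer2*, which yields sphingosine, had 94.2 times in Prom1+ cells and 68.8 times in Prom1- cells, and the acid ceramidase *Asah1* had 74.3 times in Prom1+ cells and 86.0 times in Prom1- cells. The desaturase *Degs2*, at 98.1 times in Prom1+ cells and 79.8 times in Prom1- cells, also differed by less than 2-fold. The ceramide synthase *Cers6* had 1.59 times in Prom1+ cells, under the floor, and 3.14 times in Prom1- cells, at least 1.87-fold lower.

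Of the G proteins, arrestins and regulators that act with the receptors, 2 of 16 measured passed 2-fold upward and none downward, with a median log2 ratio of 0.59. *Arhgef1*, a guanine nucleotide exchange factor, had 30.1 times the median in Prom1+ cells and 13.3 times in Prom1- cells, 2.27-fold higher. The arrestin *Arrb1* had 13.2 times in Prom1+ cells and 5.88 times in Prom1- cells, 2.24-fold higher. The inhibitory G protein *Gnai2* had 119 times in Prom1+ cells and 137 times in Prom1- cells. *Klf2*, a flow-induced transcription factor known to drive *S1pr1*, had 126 times in Prom1+ cells and 114 times in Prom1- cells. The GTPase *Rac1*, at 130 times in Prom1+ cells and 133 times in Prom1- cells, also differed by less than 2-fold, as did the exchange factor *Arhgef12*, at 95.3 times in Prom1+ cells and 110 times in Prom1- cells. *Cd69*, a lymphocyte protein that removes S1PR1 from the surface, was under the floor on both arrays.

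Transcripts of mural cells, the pericytes and smooth muscle of vessels, moved with *S1pr3*. All 16 of their markers were measured, 13 were at least 2-fold lower in Prom1+ cells and none was higher, and their summed signal was 504 times the median in Prom1+ cells and 1412 times in Prom1- cells. Their median log2 ratio was -1.63, and over the 5 other scalings it ran from -2.18 to -0.58, with 14 markers at least 2-fold lower in each but that of equal hybridization controls, where 4 were. *Acta2*, the actin of smooth muscle, had 81.6 times in Prom1+ cells and 295 times in Prom1- cells, 3.62-fold lower. *Des* had 2.77 times in Prom1+ cells and 16.0 times in Prom1- cells, 5.78-fold lower, and *Tagln* was 4.73-fold, *Rgs5* 2.15-fold and *Mylk* 1.80-fold lower. The log2 ratio of *S1pr3*, -2.13, lay within the range of these 16 markers, from -2.53 to -0.44. The part of these cells in the lower *S1pr3* signal was not tested, and in RNA from sorted cells a smaller number of cells of a type and less RNA per cell cannot be told apart.

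Markers of microglia and macrophages were lower as well, with 7 of 10 measured at least 2-fold lower, none higher, *Itgam* and *Ptprc* under the floor, and summed signals of 115 times the median in Prom1+ cells and 253 times in Prom1- cells. Among them *C1qb* was 2.47-fold, *C1qa* 3.13-fold, *C1qc* 3.08-fold, *Csf1r* 2.13-fold and *Tyrobp* 2.36-fold lower. Of 7 measured oligodendrocyte markers, 2 were at least 2-fold lower and 1 was higher, with *Mbp* 2.28-fold and *Mobp* 2.68-fold lower, *Cnp* 2.84-fold higher, *Cldn11* 1.55-fold lower, *Mog*, under the floor in Prom1- cells, at least 1.59-fold higher, and *Mag*, *Olig1*, *Olig2* and *Ugt8a* under the floor. Their summed signals were 222 times the median in Prom1+ cells and 444 times in Prom1- cells. Of 7 measured astrocyte markers, 1 was at least 2-fold higher and 1 lower, with *Fgfr3* 2.83-fold higher, *S100b* 5.11-fold lower, *Gfap*, *Aqp4* and *Aldh1l1* under the floor, and summed signals of 126 times in Prom1+ cells and 116 times in Prom1- cells. The glutamate transporter *Slc1a3* had 17.7 times in Prom1+ cells and 18.5 times in Prom1- cells, and *Gja1* was 1.26-fold higher, *Slc4a4* at least 1.72-fold higher and *Slc1a2* at least 1.93-fold lower. Of 5 measured markers of red cells and platelets, 1 was at least 2-fold higher, *Alas2*, and 1 lower, *Pf4*, with summed signals of 12.5 times in Prom1+ cells and 15.4 times in Prom1- cells. *Itga2b* was at least 1.76-fold and *Gp9* at least 1.58-fold lower, both under the floor in Prom1+ cells. Over the scalings the median log2 ratio of the microglial list ran from -1.92 to -0.04, with 0 to 10 genes at least 2-fold lower, and the medians of the oligodendrocyte and astrocyte lists, -0.24 and -0.06, became 0.42 and 0.99 under equal hybridization controls, while the oligodendrocyte median was -0.54 with equal trimmed means and the astrocyte median -0.87 with loess. The part of these cells in the signals of the S1P genes was not tested.

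**Figure D4:**
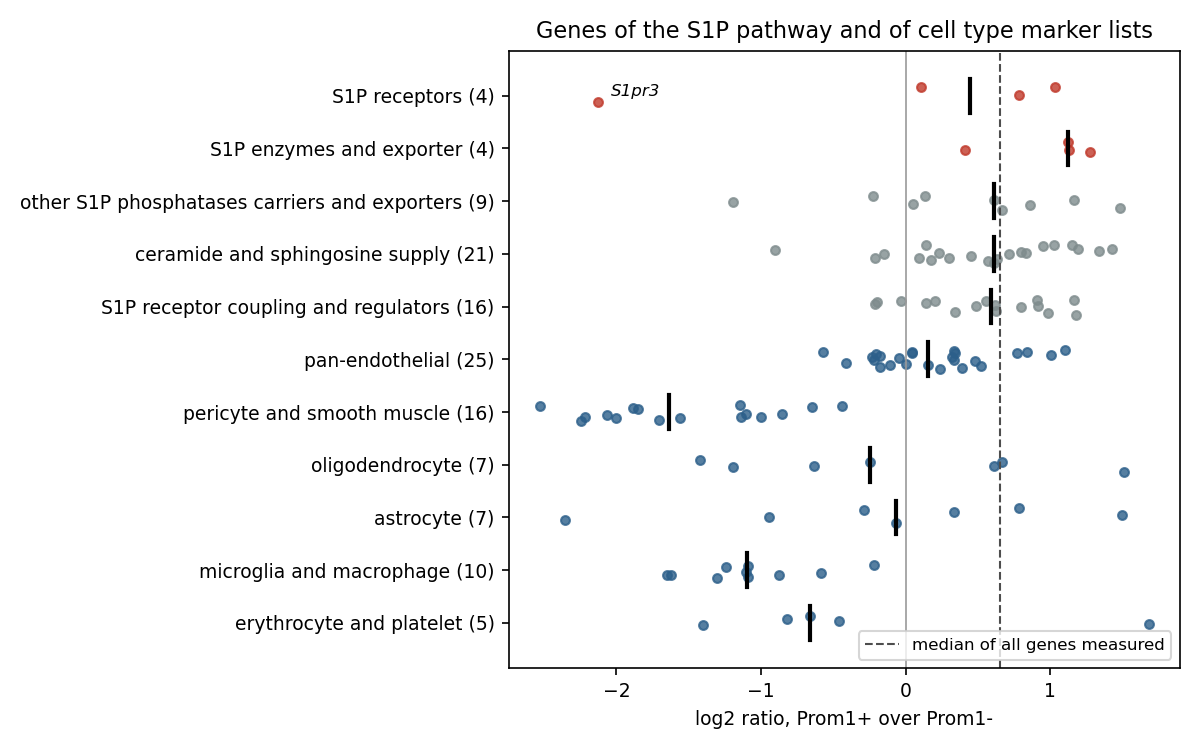
Log2 ratio of Prom1+ over Prom1- cells for the measured genes of each list, 1 point per gene, with S1P receptors and enzymes in red, the further genes of the pathway in grey, cell type markers in blue, black bars for list medians, the number of measured genes in parentheses and a dashed line at the median of all genes measured (0.66). *S1pr3*, at -2.13, lies among the 16 pericyte and smooth muscle markers, whose median was -1.63, and apart from the other 3 measured receptors.

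By the signals of both arrays, the genes nearest to *S1pr3* were *Cryab*, with 16.8 times the median in Prom1+ cells and 67.1 times in Prom1- cells, *Gucy1a1*, with 14.9 times in Prom1+ cells and 72.7 times in Prom1- cells, and *Pln*, with 15.3 times in Prom1+ cells and 63.7 times in Prom1- cells. Their distances from *S1pr3* in both log2 signals were 0.092, 0.12 and 0.15. The genes nearest to *S1pr1* were *Tmem179b*, *Lars2* and *Gmps*, at distances of 0.0092 to 0.024. With 2 arrays such likeness rests on 2 values per gene.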

How the data were processed

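RNA of sorted Prom1+ and Prom1- endothelium was measured on 1 Affymetrix array per population. The authors amplified and labeled the RNA with biotin, scaled each array to a target signal of 500 and normalized the data with GeneSpring, and the submitters' processing notes name MAS5. The deposited log2 values have a median of 0 on each array and were read as log2 multiples of that median. Versions, detection calls and signals before this step were not used here, and depth is not defined for arrays, whose number limits the precision.

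The log2 ratio was the Prom1+ value minus the Prom1- value, with signals raised to a floor of 100 on the target scale, which the 2% trimmed means of both arrays put at 1.67 times the median. With both signals under the floor no ratio was made. The brightest probe set stood for a gene, and calls were counted at a fold of 2. There was no test across genes, because each group is 1 array. Of 45101 probe sets, 34958 had 1 gene symbol, 932 had several and were left out, and 34754 identifiers were found in a RefSeq gene table of GRCm38.p6, used for current names. Promoter windows came from RefSeq on the same build.

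Every probe set of the 10 genes was reported. Of each other list, the 4 brightest genes and the 2 largest ratios each way were named and for *S1pr1* and *S1pr3* the 3 nearest genes. A gene that this rule names among the receptors' regulators is not reported here. Genes under the floor were named once their values had been seen. The members and lists were chosen with earlier results of these data known. The alternatives were other floors, folds, scalings and choices of probe set. The 2-fold rule, loess and quantile normalization were tested on simulated data. Scripts ran in Python 3.11.15 with statsmodels 0.14.6 for loess, numpy 2.4.6 and pandas 2.3.3 for the rest, and matplotlib 3.10.9 for figures.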

Additional observations from a re-analysis of the deposited data

How the results depend on the processing

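The count of 4 members at least 2-fold higher in Prom1+ cells depended on the scaling and the rule. It was 0 with both arrays at the same trimmed mean, 0 with quantile normalization, 0 with loess and 0 at a threshold of 3-fold. Of all genes measured, 7.99%, 6.23%, 5.48% and 6.60% passed under these. Equal pan-endothelial genes gave 1, beside 20.5% of all genes. Averaging the probe sets of each gene gave 2, with only 6 members measured, beside 26.7%. The count was 7 with the hybridization controls set equal, beside 80.4%. It was 4 with floors of 50 or 200 on the target scale or without probe sets named _x_at or _s_at. The shares of all genes were 28.2%, 26.5% and 29.1% there. It was 5 with no floor, beside 28.2%, and 5 at 1.5-fold, beside 54.6%. The added member at 1.5-fold was *S1pr1*. With no floor it was *Sphk1*, whose signals lay under the highest of the Bacillus probe sets on each array. The count of 1 lower member, *S1pr3*, was the same gene under all 12 alternatives. The share of all genes called lower ran from 1.62% with equal hybridization controls to 18.6% with no floor. The median log2 ratio of the members, 0.91, was 0.36 with equal trimmed means, 0.14 with quantile normalization, 0.047 with loess and 1.96 with equal hybridization controls, where the median of all genes was 0.12, 0.092, 0.037 and 1.67. The log2 ratio of the brightest probe set of *S1pr3*, -2.13, was -2.67 with equal trimmed means, -2.66 with quantile normalization, -2.84 with loess and -1.07 with equal hybridization controls. No called probe set reversed. The causes of these shifts were not tested. Of the other ratios of single probe sets under the alternatives, 41 moved by less than the SD between probe sets of 0.54 and 38 by more. This split was largely set by the alternatives themselves and is no measure of stability. A floor leaves a ratio unchanged where both signals lie above it. Equal trimmed means, equal pan-endothelial genes and equal hybridization controls each shift the arrays by a constant. Signals under the floor limit what can be said of *S1pr5* and *Sphk1*. No paired analysis was possible because each population has 1 array.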
